A study of Mus musculus with 5 samples.

Results

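Guanylate-binding proteins (GBPs) and immunity-related GTPases (IRGs) are the main interferon-inducible GTPase families of the mouse. The genes described here are 9 of them, taken by symbol from the 21289 genes of the count table: the guanylate-binding protein genes Gbp2, Gbp3, Gbp5, Gbp7 and Gbp9, and the immunity-related GTPase genes Irgm1, Irgm2, Igtp and Iigp1. All 9 had a row and all passed the filter on low counts. Messenger RNA came from CD45+CD64+ cells, a gate for monocytes and macrophages, sorted from infarcted hearts of wild-type male C57BL/6JGpt mice, taken 7 days after an infarction. In the curcumol group (3 libraries) the mice had received 30 mg/kg curcumol, a sesquiterpene of Curcuma species, by daily gavage for 7 days. In the untreated group (2 libraries) the mice had the infarction alone. The series is titled for curcumol's action on STING and on type I interferon, so the comparison bears on genes that interferons induce. The sources used here do not say whether a library stands for 1 animal or a pool, and the p-values reflect the library-to-library spread alone, which may be technical.

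Interferon gamma binds a receptor of the chains Ifngr1 and Ifngr2, which signals through the kinases Jak1 and Jak2. Its signal reaches genes at gamma-activated sites (GAS), and interferon regulatory factors such as Irf1 and Irf8 bind interferon-stimulated response elements (ISRE), which type I interferon reaches too. GBPs are large GTPases of the dynamin superfamily that assemble on bacteria and on the vacuoles of parasites, and they promote caspase-11 and AIM2 inflammasome responses. Of the IRGs, Irgm1, Irgm2 and Igtp (also called Irgm3) are regulators that sit on the cell's own membranes and hold the effectors inactive there, while Iigp1 (also called Irga6) is an effector that loads onto parasite vacuoles.

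Total counts per library were 41070634, 41117439 and 39768705 with curcumol and 43315822 and 41663017 without. The untreated libraries held fewer genes: 17188, 17078 and 18501 genes had a count in the curcumol libraries, against 12243 and 12915 in the untreated libraries. Levels are CPM, counts as parts of a common TMM-scaled library size. Libraries of one group differed on the log2 scale with an SD, over scarce genes at 3 to 10 CPM, of 0.70 to 0.77 for pairs of curcumol libraries, against 3.15 for the untreated pair. Over abundant genes (above 100 CPM) it was 0.36 to 0.47, against 0.35. The gate's genes were present in every library, for example Fcgr1, which encodes CD64, at 329, 300.1 and 249 CPM with curcumol and 349 and 373 CPM without. Of a list of 12 macrophage and gate genes, 5 were higher and 4 lower with curcumol without overlap. Over all 14508 tested genes these numbers were 4280 and 2161. Mertk stood at 62.2, 139 and 77.4 CPM with curcumol and 32.8 and 39.5 CPM without. Itgam stood at 269, 428 and 180 CPM against 138 and 92.0 CPM, and Cd68 at 2061, 1732 and 2029 CPM against 3670 and 3172 CPM. Summed markers of several other cell types differed between the groups. A list of 12 neutrophil genes summed to 3539, 1575 and 3081 CPM with curcumol, against 394 and 423 CPM without, and each untreated library lacked counts for 3 of its 12 genes, with Ly6g and Camp at 0 in both. Of these 12 genes 2, Ngp and Camp, passed the edgeR test as higher with curcumol (adjusted p = 0.0147 and 0.0156), where 0.207% of all tested genes passed. A list of 12 endothelial genes summed to 76.8, 135 and 93.0 CPM, against 31.1 and 36.3 CPM, with 7 of 12 at 0 in each untreated library, Cdh5 among them. A list of 18 T and NK cell genes summed to 96.8, 194 and 160 CPM, against 115 and 111 CPM, with 8 and 7 genes at 0 in the untreated libraries. The sums were 114, 73.3 and 101 CPM against 54.7 and 36.6 CPM for 7 B cell genes, 98.2, 107 and 116 CPM against 19.4 and 59.5 CPM for 10 cardiomyocyte genes, 791, 661 and 922 CPM against 964 and 909.6 CPM for 10 fibroblast genes and 88.8, 89.7 and 53.0 CPM against 83.0 and 51.8 CPM for 8 dendritic cell genes. Most of the fibroblast sum was Gsn, at 658, 502 and 586 CPM with curcumol and 927 and 879 CPM without, a gene not limited to fibroblasts. Of the 10 fibroblast genes 8 had a positive log2 fold change, Dcn and Lum passed the edgeR test as higher with curcumol (adjusted p = 0.0464 for each), and 4 and 3 genes were at 0 in the untreated libraries. Such cells can also express GBPs and IRGs, and their part in the results below was not tested.

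Interferons act through elements near the starts of such genes, and these regions are shown for that reason. The genes were chosen from interferon-inducible families, and whether these elements bear on the levels below was not tested. RefSeq sequences (build GRCm38.p6, 250 bases before to 50 after an annotated start) matched 7 of the 9 genes by symbol: Gbp2, Gbp3, Gbp5, Gbp7, Irgm1, Irgm2 and Igtp. An ISRE was searched as GAAANNGAAA (GAAA at a spacing of 2 bases) and a GAS as TTCNNNGAA, on both strands. In the sequences below, written 5′ to 3′ along the gene, capitals mark these matches.
Gbp2, chr3:142620413-142620712, plus strand: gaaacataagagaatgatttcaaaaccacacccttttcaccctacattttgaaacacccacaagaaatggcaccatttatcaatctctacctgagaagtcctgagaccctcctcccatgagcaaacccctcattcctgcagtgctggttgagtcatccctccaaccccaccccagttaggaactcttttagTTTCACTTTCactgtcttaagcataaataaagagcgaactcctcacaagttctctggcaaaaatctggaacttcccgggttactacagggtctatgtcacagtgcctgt
Gbp7, chr3:142530086-142530385, plus strand: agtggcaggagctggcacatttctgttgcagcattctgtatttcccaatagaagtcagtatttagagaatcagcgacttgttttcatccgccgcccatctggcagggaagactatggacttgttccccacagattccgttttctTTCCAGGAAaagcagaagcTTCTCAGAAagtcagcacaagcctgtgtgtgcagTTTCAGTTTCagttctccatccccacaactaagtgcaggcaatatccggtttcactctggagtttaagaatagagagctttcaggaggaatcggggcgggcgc
Irgm1, chr11:48871371-48871670, minus strand: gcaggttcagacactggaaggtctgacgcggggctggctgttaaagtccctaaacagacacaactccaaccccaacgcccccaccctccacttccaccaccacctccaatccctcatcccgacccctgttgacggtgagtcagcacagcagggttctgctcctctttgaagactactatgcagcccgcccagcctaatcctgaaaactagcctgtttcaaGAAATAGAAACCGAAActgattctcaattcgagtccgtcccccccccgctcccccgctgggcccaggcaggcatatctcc
Irgm2, chr11:58214727-58215026, plus strand: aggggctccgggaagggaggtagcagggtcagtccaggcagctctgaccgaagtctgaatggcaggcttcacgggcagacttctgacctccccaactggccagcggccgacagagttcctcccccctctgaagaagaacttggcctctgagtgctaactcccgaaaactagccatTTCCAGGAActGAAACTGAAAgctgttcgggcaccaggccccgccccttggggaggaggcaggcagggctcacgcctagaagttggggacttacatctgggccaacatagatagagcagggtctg
Igtp, chr11:58199306-58199605, plus strand: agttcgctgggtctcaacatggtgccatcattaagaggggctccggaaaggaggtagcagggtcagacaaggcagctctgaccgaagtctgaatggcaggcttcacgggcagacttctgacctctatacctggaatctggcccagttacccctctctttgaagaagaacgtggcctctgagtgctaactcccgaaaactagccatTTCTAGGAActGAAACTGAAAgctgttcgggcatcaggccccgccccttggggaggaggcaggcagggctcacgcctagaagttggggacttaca
All 7 genes had an ISRE match, against 3.99% of 27025 genes in the same table, and 4 of 7 (Gbp5, Gbp7, Irgm2 and Igtp) also had a GAS match, against 9.55%. In Gbp2 the ISRE lay 59 to 50 bases before the start and in Gbp7 53 to 44 bases before it, downstream of GAS matches at 106 to 98 and 87 to 79 bases. In Irgm1 a pair of overlapping ISRE matches covered bases 30 to 15 before the start. Irgm2 and Igtp, whose exons overlap in the GENCODE M21 annotation, had a GAS match just upstream of an identical ISRE, and their start regions shared a run of 61 identical bases. A match describes letters in this window and is not a measured binding site.

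**Figure D1:**
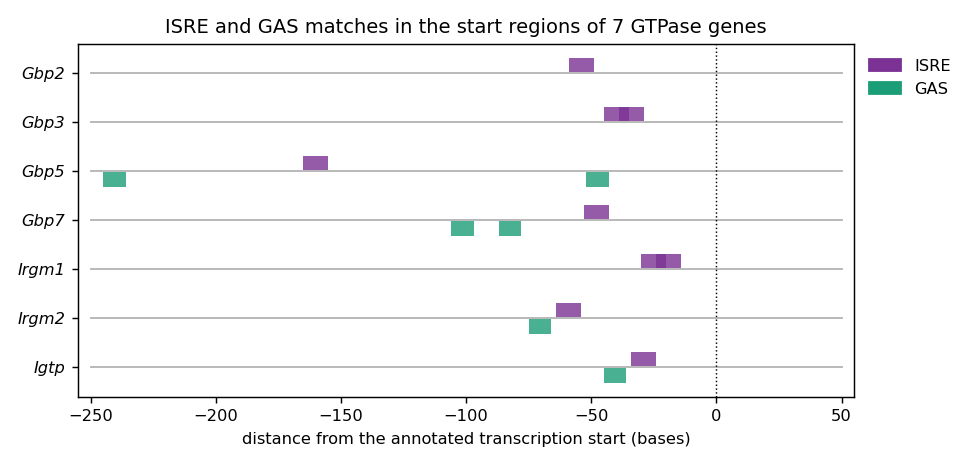
Matches to the ISRE (purple, above each line) and GAS (green, below) patterns in the start regions of 7 GTPase genes; the x axis is the distance in bases from the annotated transcription start. Each of the 7 genes has an ISRE match, and Gbp5, Gbp7, Irgm2 and Igtp also have a GAS match.

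The genes differed widely in level. Per kilobase of the longest coding GENCODE M21 transcript, the mean over the 5 libraries was 50.3 CPM per kb for Igtp, 34.2 for Irgm1, 25.1 for Gbp2, 18.1 for Gbp3, 10.9 for Irgm2, 10.4 for Gbp7, 8.06 for Iigp1, 4.74 for Gbp9 and 0.932 for Gbp5. Igtp stood above Irgm1, Irgm1 above Gbp2, Gbp3 above Irgm2 and Gbp9 above Gbp5 in all 5 libraries. Gbp2 stood above Gbp3 in 4 of 5 libraries. Irgm2, Gbp7, Iigp1 and Gbp9 did not keep one order: Irgm2 exceeded Gbp7 in 2 of 5 libraries, Gbp7 exceeded Iigp1 in 3 and Iigp1 exceeded Gbp9 in 2. The membrane regulators Igtp and Irgm1 were thus the most abundant members per length and Gbp5 the least. Reads of related genes can be confused. Of the 50-base windows, 12.8% of those of the Gbp7 transcript and 12.3% of those of Igtp occur in transcripts of other genes. Among these are Gbp3, Gbp9 and Gbp11 for Gbp7 and Irgm2 for Igtp. For Irgm2 the share was 7.3%, over 209 other genes that include Igtp, and for Irgm1 it was 0%.

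None of the 9 genes passed an adjusted p of 0.05 between curcumol and untreated cells in edgeR's quasi-likelihood test over 14508 genes, and 1 of 9, Irgm2, had an unadjusted p under 0.05, as did 24.6% of all tested genes. Over all genes 0.207% passed the edgeR test, so a count of 0 among 9 does not set these genes apart. DESeq2 called Irgm2 higher and no other member, where it called 16.8% of the 15767 genes with an adjusted p (12.5% higher and 4.37% lower), so 1 of 9 is near the background. Limma-voom called no member, against 11.4% of all tested genes (9.72% higher and 1.73% lower), and with library weights again none, against 0.0551%. Their log2 fold changes (curcumol minus untreated) were positive for 8 genes and near 0 for Igtp, with a median of 0.49, against 0.15 and 57.1% positive over all tested genes. Irgm2 and Iigp1 were higher in every curcumol library than in every untreated library. That is 2 of 9 genes, where 29.5% of all tested genes were higher without overlap, so the share is close to the background.

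Irgm2, a regulator that in mice lives on Golgi membranes, had the clearest difference. It stood at 59.3, 75.5 and 23.7 CPM in the curcumol libraries and at 15.0 and 19.0 CPM in the untreated libraries. All 3 curcumol values lay above both untreated values, and curcumol replicate 3 was close to them. The means were 52.8 ± 26.5 and 17.0 ± 2.81 CPM (SD, n = 3 and 2), a log2 fold change of 1.64 ± 0.50 (SE, 95% interval 0.44 to 2.84) with an adjusted p of 0.101 in edgeR. With DESeq2 the adjusted p was 0.0128, and over all 13 alternatives it ranged from 0.0128 to 0.358.

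Iigp1, the vacuole effector, varied more. It stood at 49.9, 60.7 and 8.43 CPM with curcumol and at 0 and 6.75 CPM without. The curcumol libraries were all higher, but curcumol replicate 3 exceeded untreated replicate 2 by little. The log2 fold change was 3.55 ± 1.74 (95% interval -0.64 to 7.75, edgeR adjusted p = 0.271). The absence of counts in untreated replicate 1 was not peculiar to it: of 1618 other genes within 1.5-fold of the level of Iigp1 in untreated replicate 2, 9.7% had no count in untreated replicate 1.

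The remaining regulators were close to level between the groups. Irgm1, which acts in autophagy and in resistance to intracellular bacteria, stood at 169, 172 and 73.8 CPM with curcumol and at 111 and 128 CPM without. Curcumol replicates 1 and 2 were above the untreated libraries and replicate 3 was below both, so the groups overlapped. Its log2 fold change was 0.21 ± 0.37 (95% interval -0.68 to 1.10, edgeR adjusted p = 0.798). Igtp, a regulator on the endoplasmic reticulum, stood at 124, 125 and 56.0 CPM with curcumol and at 94.9 and 109 CPM without. It showed the same arrangement of libraries, and its log2 fold change was -0.0016 ± 0.36 (95% interval -0.86 to 0.86, edgeR adjusted p = 0.999), a sign that turned under total counts, the replicate block and several other settings given at the end.

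Among the GBPs, Gbp2, which is lipid-anchored and targets vacuoles and bacteria, stood at 107, 91.8 and 36.4 CPM with curcumol and at 16.5 and 64.3 CPM without. The untreated libraries lay on either side of curcumol replicate 3, and the log2 fold change was 0.96 ± 0.67 (95% interval -0.65 to 2.57, edgeR adjusted p = 0.447). Gbp7, which has been linked to assembly of the phagocyte NADPH oxidase, stood at 77.4, 87.1 and 42.4 CPM with curcumol and at 30.0 and 55.1 CPM without, a log2 fold change of 0.70 ± 0.39 (edgeR adjusted p = 0.342). Gbp9 stood at 28.8, 35.9 and 14.0 CPM with curcumol and at 14.2 and 26.5 CPM without, a log2 fold change of 0.37 ± 0.48 (edgeR adjusted p = 0.714). In both genes curcumol replicates 1 and 2 were the highest libraries, and curcumol replicate 3 fell within the untreated range for Gbp7 and just below it for Gbp9.

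Gbp3 and Gbp5 arranged the untreated libraries differently. Gbp3 stood at 66.2, 66.7 and 31.6 CPM with curcumol and at 52.6 and 25.5 CPM without, so that here untreated replicate 1 was the higher one. Its log2 fold change was 0.49 ± 0.44 (edgeR adjusted p = 0.571). Gbp5, which promotes NLRP3 inflammasome assembly, was scarce, at 3.37, 5.79 and 1.46 CPM with curcumol and at 0 and 6.88 CPM without. The highest and the lowest value both belonged to untreated libraries, and the log2 fold change was 0.04 ± 1.84 (95% interval -4.39 to 4.47, edgeR adjusted p = 0.993). Of 1622 other genes within 1.5-fold of the level of Gbp5 in untreated replicate 2, 9.12% had no count in untreated replicate 1.

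**Figure D2:**
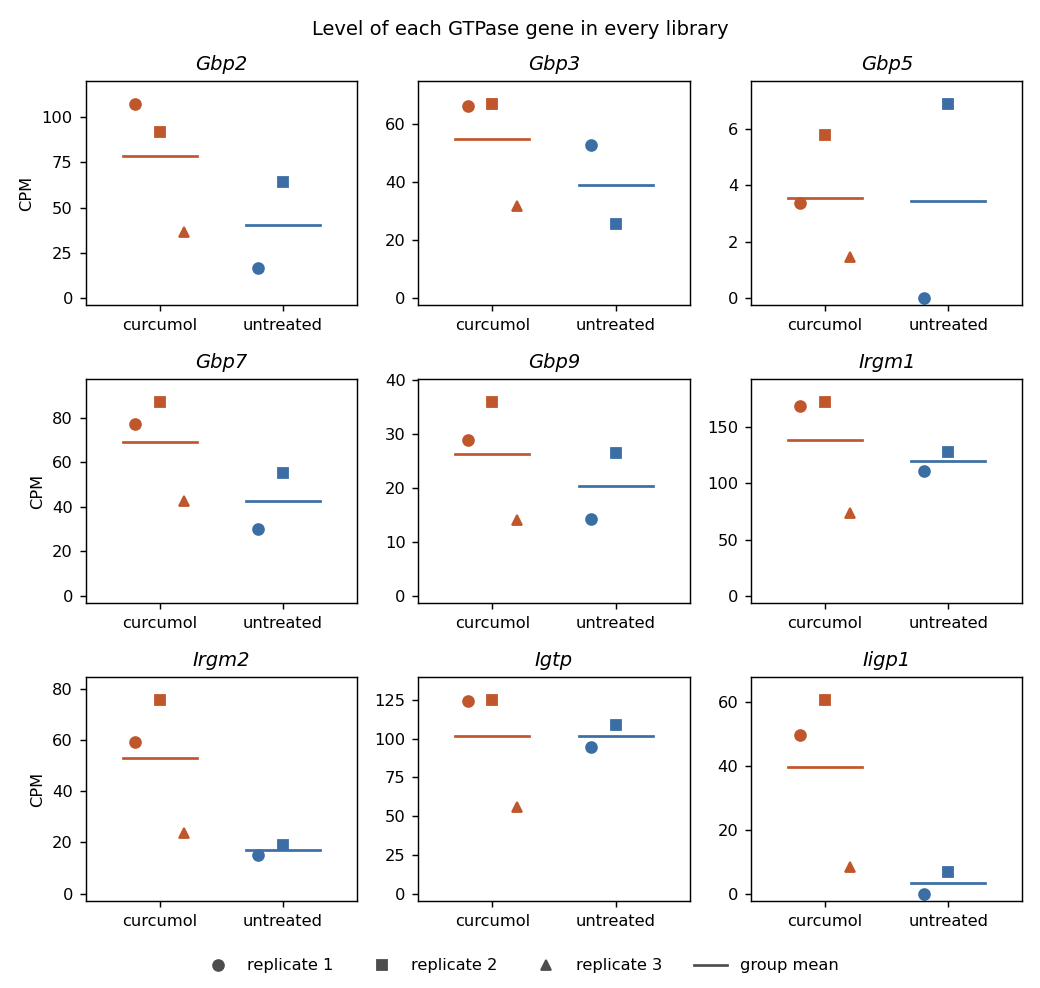
CPM of each of the 9 GTPase genes in every library, curcumol (orange, left) and untreated (blue, right); symbols mark the replicate and lines the group means. Only Irgm2 and Iigp1 have every curcumol library above both untreated libraries, and curcumol replicate 3 is the lowest curcumol library in all 9 panels.

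A pattern shared by all 9 genes lay within the curcumol group. Curcumol replicate 3 was the lowest curcumol library for every member, at 0.153 (Iigp1) to 0.516 (Gbp7) of the mean of replicates 1 and 2. The median log2 difference of replicate 3 from the mean log2 level of the other two was -1.21 over the members and 0.006 over all tested genes. Summed over the 9 genes the level was 685, 721 and 288 CPM in the curcumol libraries and 335 and 440.5 CPM in the untreated libraries, so curcumol replicate 3 had the lowest sum of all. The IRG sum was 402, 433 and 162 CPM with curcumol against 221 and 262 CPM without, and the GBP sum 283, 287 and 126 CPM against 113 and 178 CPM. A low replicate 3 was not limited to these genes. The list of other interferon gamma effectors, described below, summed to 20506, 24360 and 11960 CPM with curcumol and to 20878 and 18297 CPM without. Its largest part was Cd74, at 10283, 12635 and 4390 CPM with curcumol, while Serping1 of the same list was highest in replicate 3. The sums of neutrophil, endothelial, B cell and T and NK cell markers in curcumol replicate 3, given above, lay between those of curcumol replicates 1 and 2. Of the 3 curcumol libraries, dendritic cell markers were lowest in replicate 3 and fibroblast and cardiomyocyte markers highest. The macrophage list had its lowest sum of all 5 libraries there, at 42484 CPM, against 44036 to 49653 CPM in the others. The largest part of that sum was Lyz2, at 20527 CPM in curcumol replicate 3 and also lowest there. Genes of the list did not all follow this order. Cd14, at 1756 CPM in replicate 3, was highest there among the curcumol libraries (1734 and 1129 CPM in replicates 1 and 2). In bulk libraries such as these, fewer cells expressing a gene and less RNA per cell cannot be told apart.

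The comparison between the groups therefore depended on curcumol replicate 3. That library was singled out as the lowest curcumol library for all 9 genes, so leaving it out favours a higher count and median for them. All tested genes were not selected in this way, so their values are not a like background for that fit. Without curcumol replicate 3, 8 of the 9 genes were higher in both remaining curcumol libraries than in both untreated libraries, all but Gbp5, where 32.6% of 13775 tested genes were. Without replicate 1 or without replicate 2 the number was 2 of 9 (32.4% and 31.4% of all tested genes). Without replicate 3 the members' median log2 fold change was 0.77, against 0.11 over all tested genes, and all 9 were positive. Even so no member passed edgeR's adjusted threshold, as 0.138% of all tested genes did: Irgm2 had a log2 fold change of 1.99 ± 0.27 (adjusted p = 0.106), Irgm1 0.51 ± 0.16 (0.168), Gbp7 0.95 ± 0.34 (0.230) and Iigp1 4.03 ± 1.89 (0.360). Single untreated libraries mattered as much. Leaving out untreated replicate 2 gave 5 members past the threshold (Gbp2, Gbp5, Gbp7, Irgm2 and Iigp1, all higher), with a lone untreated library assumed to vary like the curcumol libraries. In that fit 22.5% of 15692 tested genes passed, 18.1% as higher. Leaving out untreated replicate 1 gave none, where 18.7% of all tested genes passed.

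**Figure D3:**
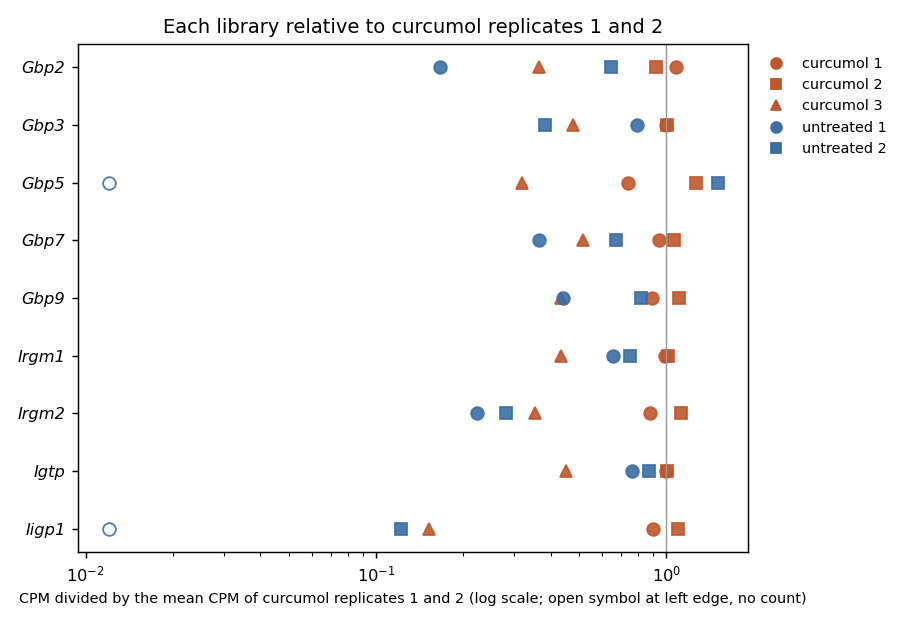
CPM of each GTPase gene in each library divided by the mean CPM of curcumol replicates 1 and 2, on a log axis; orange symbols are curcumol, blue untreated, and open symbols at the left edge stand for no count. Curcumol replicate 3 (triangles) lies between 0.153 and 0.516, among or below the untreated libraries for every gene except Irgm2 and Iigp1.

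Some members kept a nearly fixed proportion in every library. Of the 36 pairs of members, Irgm1 and Igtp had the most constant ratio of counts, at 1.36, 1.38 and 1.32 with curcumol and 1.17 and 1.18 without, an SD of 0.11 on the log2 scale where the median pair had 0.86. Next came Gbp7 and Gbp9, at 2.68, 2.42 and 3.02 with curcumol and 2.11 and 2.08 without. Irgm2 departed from the other regulators. Its ratio to Igtp, the gene it overlaps, was 0.478, 0.605 and 0.424 with curcumol and 0.158 and 0.175 without, and in contrast to its level this ratio was about as high in curcumol replicate 3 as in replicate 1. The ratio of Gbp2 to Gbp3 was 1.62, 1.38 and 1.15 in the curcumol libraries, between the 0.314 and 2.52 of the untreated libraries. Ratios did not overlap between the groups in 18 of 36 pairs. The pairs share genes and so are not independent, and the share among pairs of other genes was not computed. Whether 18 of 36 differs from the background was therefore not tested. No test below p = 0.1 is possible for a single ratio in an exact permutation of 3 against 2 libraries.

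Related GTPases were also mostly positive in their fold change. Of a list of 21 further interferon-inducible GTPase genes, 15 had a row, all 15 were tested, and 13 had a positive log2 fold change, with a median of 1.64. None passed in edgeR. An unadjusted p under 0.05 was found for 3 of 15, all higher, and for 24.6% of all tested genes in either direction. DESeq2 and limma-voom without weights each called F830016B08Rik and Gbp10 higher, 2 of 15, where 12.5% and 9.72% of all tested genes were called higher. Limma-voom with library weights called none. The curcumol libraries were higher without overlap for 5 of 15 (29.5% of all tested genes), and for 13 of 15 when curcumol replicate 3 was left out (32.6%). The last count has the limit given above, since that library was left out for its low GTPase levels. Gm12250 (Irgb10), an effector that acts with GBPs on bacterial membranes, stood at 46.9, 56.2 and 17.9 CPM with curcumol and at 16.0 and 21.7 CPM without (log2 fold change 1.10 ± 0.50, edgeR adjusted p = 0.237). Tgtp2 (also called Irgb6), a vacuole effector, stood at 41.0, 52.5 and 11.6 CPM with curcumol and at 10.4 and 23.3 CPM without. Its near copy Tgtp1 had 4.83, 6.00 and 2.21 CPM against 2.97 and 0.205 CPM, and reads of the pair may be split. In Gm12250 and Tgtp2, as in Gbp2, Gbp3 and Gbp7, curcumol replicates 1 and 2 lay above both untreated libraries and replicate 3 within the untreated range.

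Several of these relatives were missing from untreated replicate 1, as Gbp5 and Iigp1 were. Gbp4 had 18.1, 19.4 and 4.60 CPM with curcumol and 0 and 6.73 CPM without. Gbp6 had 16.1, 15.1 and 3.97 CPM with curcumol and 0 and 7.55 CPM without. Gm4951 had 41.5, 44.5 and 15.5 CPM with curcumol and 0.025 and 9.41 CPM without, and was higher in every curcumol library (edgeR adjusted p = 0.324). Gbp2b had 6.29, 1.29 and 0.540 CPM with curcumol and 5.65 and 0 CPM without, so here untreated replicate 2 was the one without a count. Gbp8, which barely differed, stood at 7.65, 8.61 and 3.17 CPM with curcumol and at 7.15 and 7.39 CPM without. F830016B08Rik had 2.34, 7.36 and 2.28 CPM with curcumol and no count in either untreated library, at least 52.3-fold higher in the mean when each untreated library is set to 3 counts (edgeR adjusted p = 0.0651). Gbp10 had 0.980, 0.840 and 0.141 CPM with curcumol and no count without. Irgc1 was highest in curcumol replicate 3, at 0.789, 0.204 and 0.963 CPM with curcumol and 0 and 0.281 CPM without. The others tested were Gm5431, Gvin1, 9930111J21Rik1 and 9930111J21Rik2, with log2 fold changes of 1.13 to 4.54 and adjusted p from 0.170 to 0.593. Floors and counting limits cover counting error only.

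**Figure D4:**
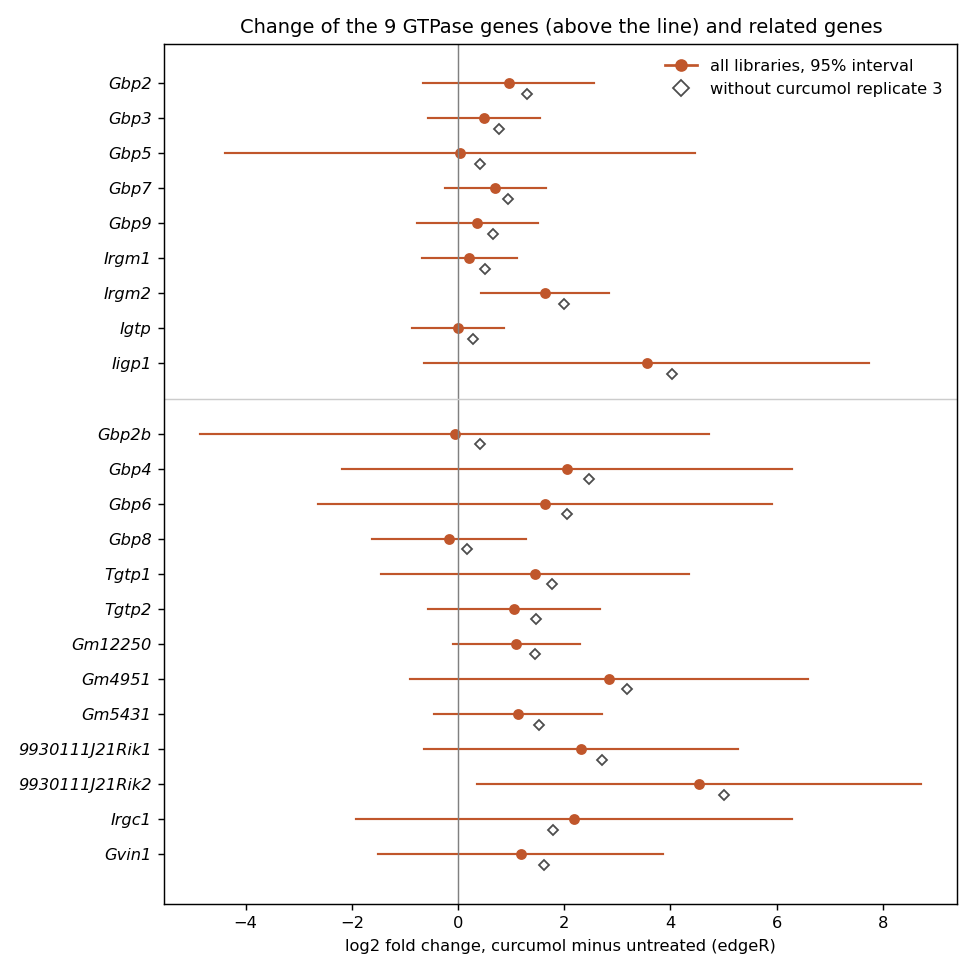
Log2 fold changes (curcumol minus untreated, edgeR) of the 9 GTPase genes, above the grey line, and of related GTPase genes with a count in an untreated library, below it; filled circles with lines are all 5 libraries with 95% intervals and open diamonds the fit without curcumol replicate 3. The intervals of Irgm2 and 9930111J21Rik2 lie above 0 before adjustment, and every diamond except that of Irgc1 lies to the right of its circle.

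Interferon gamma and the proteins that carry its signal did not pass the test either. Of 23 genes of this list, all tested, 15 leaned higher and 8 lower by the sign of the log2 fold change, whose median was 0.38. None passed in edgeR (8 at an unadjusted p under 0.05, 7 higher and 1 lower). Over all 14508 tested genes 24.6% had such a p, 2629 higher and 944 lower. DESeq2 called 5 higher (Ciita, Ifng, Il12rb1, Jak1 and Jak2), limma-voom 3 (Ciita, Il12a and Il12rb1) and limma-voom with library weights none, where 12.5%, 9.72% and 0% of all tested genes were called higher. Ifng itself was scarce, with 5, 94 and 24 counts in the curcumol libraries (0.119, 2.13 and 0.564 CPM) and none in the untreated libraries, at least 12.3-fold higher in the mean on the same basis (edgeR adjusted p = 0.100). Its order within the curcumol group differed from that of the GTPases: Ifng was lowest in replicate 1, where the GTPases were high. The receptor chains were level, Ifngr1 at 828, 746 and 774 CPM with curcumol and 778 and 792 CPM without, with a log2 fold change of -0.0042 ± 0.14, and Ifngr2 at 203, 204 and 209 CPM with curcumol and 183 and 219 CPM without.

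Irf1, which binds the ISRE, stood at 174, 199 and 142 CPM with curcumol and at 217 and 166 CPM without, and Irf8 at 422, 378 and 404 CPM with curcumol and at 394 and 464 CPM without. For both factors the groups overlapped. Jak1, the receptor kinase, stood at 196, 272 and 172 CPM with curcumol and at 88.9 and 117 CPM without (1.05 ± 0.25, edgeR adjusted p = 0.0731). Ciita, the master regulator of MHC class II genes, stood at 39.3, 53.1 and 28.0 CPM with curcumol and at 6.54 and 2.33 CPM without (3.18 ± 0.56, edgeR adjusted p = 0.0644). Both were higher in every curcumol library, replicate 3 included. Of the 23 genes of this list 9 were higher without overlap, as were 29.5% of all tested genes, and 2 were lower. Il12rb1, a chain of the receptor for interleukin-12, had 1.86, 6.45 and 1.86 CPM with curcumol and no count without (edgeR adjusted p = 0.0651).

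**Figure D5:**
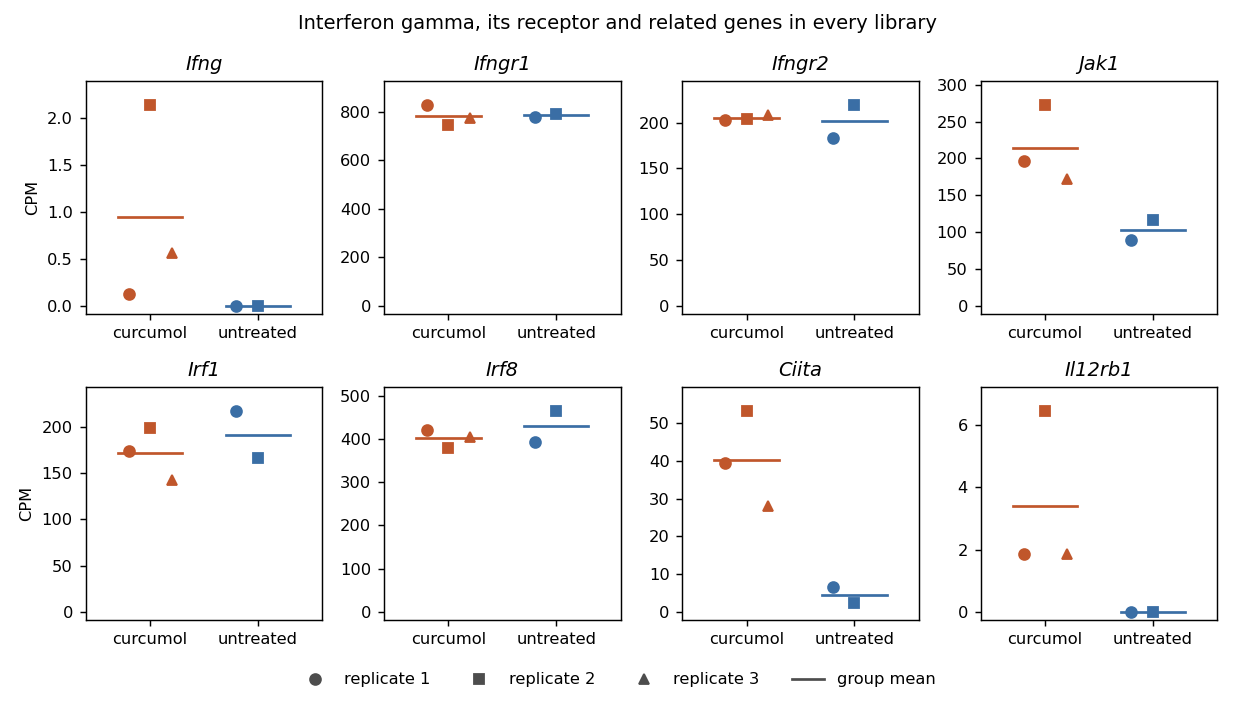
CPM of interferon gamma (Ifng), its receptor chains, the kinase Jak1, the transcription factors Irf1 and Irf8, the coactivator Ciita and the interleukin-12 receptor chain Il12rb1 in every library, curcumol (orange, left) and untreated (blue, right); symbols mark the replicate and lines the group means. Ifng, Jak1, Ciita and Il12rb1 are higher in all curcumol libraries, and the receptor chains of interferon gamma are level. Among the 23 genes of the list 9 were higher without overlap, as were 29.5% of all tested genes.

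Genes that work with the GTPases or share their inducer gave mixed counts. Their counts at an unadjusted p under 0.05 in edgeR are to be read against 24.6% of all tested genes. Limma-voom with library weights called none of the genes in the 5 lists that follow, and the calls of DESeq2 and of limma-voom without weights are to be read against the shares given above, 4.37% and 1.73% of all tested genes for lower calls and 12.5% and 9.72% for higher ones. Of 8 genes of type I interferon signalling 4 were positive and 4 negative, with a median of 0.11 and none called by edgeR, DESeq2 or limma-voom (0 at an unadjusted p under 0.05 in edgeR). The smallest p in this list belonged to the kinase Tyk2 at 54.4, 60.0 and 41.2 CPM with curcumol and 29.8 and 4.78 CPM without, the receptor chain Ifnar1 at 183, 208 and 170 CPM against 166 and 105 CPM, and Stat2 at 58.5, 80.9 and 36.6 CPM against 2.59 and 40.4 CPM. Inflammasome and pyroptosis partners of GBPs were 8 positive and 8 negative of 16, with a median of 0.05. None passed in edgeR (3 at an unadjusted p under 0.05), while DESeq2 and limma-voom without weights called the same 3 lower: the lipopolysaccharide coreceptor Cd14 at 1539 ± 356 and 3727 ± 39.7 CPM, Il1b at 418 ± 165 and 1504 ± 237 CPM, and the sensor Nlrp3 at 10.9 ± 5.84 and 36.5 ± 3.94 CPM (curcumol and untreated, SD, n = 3 and 2; edgeR adjusted p from 0.0644 to 0.0802).

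The autophagy genes through which IRGs and GBPs reach vacuoles were 5 positive and 13 negative of 18, with a median of -0.13. None passed in edgeR (3 at an unadjusted p under 0.05). DESeq2 called the receptor Sqstm1 lower (572 ± 57.7 CPM with curcumol and 1192 ± 136 CPM without) and Nbr1 (67.6 ± 12.6 and 29.6 ± 10.3 CPM) and Calcoco1 (20.3 ± 4.86 and 10.3 ± 0.897 CPM) higher, and limma-voom Sqstm1 alone. Of 15 genes of vacuole ubiquitin, galectins and prenylation 8 were positive and 7 negative (median 0.04). None passed in edgeR (3 at an unadjusted p under 0.05). DESeq2 called Lgals3 and Lgals9 lower and limma-voom Lgals3: Lgals3, a galectin that binds damaged vacuoles, stood at 2416 ± 487 CPM with curcumol and 4164 ± 242 CPM without, and Lgals9 at 386 ± 61.0 and 557 ± 26.7 CPM. The third smallest p was that of the prenylation enzyme Icmt, at 18.0 ± 7.48 and 7.56 ± 2.80 CPM.

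Other effectors of interferon gamma were 15 positive and 12 negative of 27 tested, with a median of 0.0027. None passed in edgeR (7 at an unadjusted p under 0.05, 3 higher and 4 lower). DESeq2 called Serping1 higher and Acod1 and Cxcl10 lower, and limma-voom Serping1 higher and Acod1 lower. Serping1, the C1 esterase inhibitor, stood at 16.3, 8.22 and 20.9 CPM with curcumol and at 0 and 0.153 CPM without. Acod1, the enzyme that makes itaconate, stood at 22.3, 16.6 and 10.1 CPM with curcumol and at 38.3 and 55.9 CPM without, and the chemokine Cxcl10 at 96.9, 59.5 and 41.6 CPM with curcumol and at 113 and 204 CPM without.

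The 5 genes with profiles most like that of the 9 GTPases over the libraries were Fgfr1, Smpdl3b, Samd9l, Ephx1 and Trim21. Likeness was measured over the 5 libraries as the root mean square difference between a gene's centred log2 CPM and that of the members' mean, among 8253 other genes with an average log2 CPM of at least 3. The smallest differences were 0.22 for Fgfr1, a fibroblast growth factor receptor, 0.23 for Smpdl3b, 0.27 for Samd9l, an interferon-induced gene, 0.29 for Ephx1, an epoxide hydrolase, and 0.30 for Trim21, the antibody receptor and ubiquitin ligase. Samd9l stood at 50.7, 63.2 and 21.5 CPM with curcumol and at 6.23 and 19.9 CPM without, and Trim21 at 11.2, 12.9 and 6.30 CPM with curcumol and at 2.76 and 6.68 CPM without. The members' mean profile includes Gbp5 and Iigp1 at 0 in untreated replicate 1, so it weights that library heavily.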

How the data were processed

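The data were whole-number read counts per gene from 5 bulk RNA libraries of CD45+CD64+ cells of infarcted hearts, 3 with curcumol and 2 without, matched to samples by title. The authors deposited these counts unnormalized; fastp, HISAT2, HTSeq and Bowtie2 were used, per the submitters' processing notes. Versions, genome build, annotation and strand setting: not given in the sources used here. The table held 21289 genes, 752 of them without a count.

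Curcumol was compared with untreated by edgeR 4.0.16 (R 4.3.3) in a quasi-likelihood model of group alone (TMM factors, filterByExpr at a minimum count of 10). Tests were two-sided, with 3 residual degrees of freedom and Benjamini-Hochberg adjustment over all tested genes at 0.05. CPM use TMM-scaled totals, and log2 CPM a prior count of 2. A floor of 3 counts was 0.0760 and 0.0767 CPM in the untreated libraries. SEs are the size of the fold change over the root of F. Alternatives were DESeq2 1.42.0, limma-voom (limma 3.58.1), other scalings and filters, a replicate block and leaving out each library. Scripts were tested on simulated counts. Genes named were the 9 members, the tested related GTPases and the 3 genes of each other pathway list that had the lowest p. Also named were Ifng, Ifngr1, Ifngr2, Irf1 and Irf8 and the 5 genes most like the members. Jak2 and Il12a, called by other tools, were added after their values were seen. So were the marker genes Fcgr1, Mertk, Itgam, Cd68, Lyz2, Ly6g, Camp, Ngp, Cdh5, Gsn, Dcn and Lum, and the interferon gamma effector Cd74. Marker lists were given by summed CPM and genes at 0. The members and lists were chosen with earlier results of these data known. Start-region sequences are RefSeq's (GRCm38.p6), and transcript lengths are from GENCODE M21. One gene that the rule names is not reported here.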

Additional observations from a re-analysis of the deposited data

How the results depend on the processing

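Precision was limited by 2 untreated libraries that differed strongly below 30 CPM and by single libraries in each group. Over all genes 30 passed the threshold, against 2653 with DESeq2, 10 with total counts, 416 without a filter on low counts, 98 with a CPM of at least 1 in 2 libraries, 1661 with limma-voom, 8 with library weights and 0 to 3531 when 1 library was left out (1, 0 and 19 without curcumol replicate 1, 2 or 3, and 2950 and 3531 without untreated replicate 1 or 2; the 0 came with 2383 at an unadjusted p under 0.05). Of the 9 GTPase genes none passed, against 1 with DESeq2 (Irgm2) and 0 to 5 when 1 library was left out. Their median log2 fold change of 0.49 ranged from 0.29 (without untreated replicate 1) to 1.22 (without untreated replicate 2) when a library was left out, and was 1.01 with the replicate block, 0.70 with limma-voom and 0.68 with total counts, where the median of all genes was 0.34. The sign of Igtp turned with total counts (0.18), without a filter (0.0016), with the replicate block (0.29) and when a library was left out (-0.17 to 0.29; above 0 without untreated replicate 2, 0.12, or curcumol replicate 3). That of Gbp5 turned without untreated replicate 1 (-0.95) or curcumol replicate 2 (-0.51), within a range of -0.95 to 10.2 whose upper end is a fit against a library without counts. That of Gbp9 turned without untreated replicate 1 (-0.010), in a range up to 0.90. The cause was not tested. In the other 103 of 117 single-gene values direction and call were unchanged, and 6 gained a call, 5 of them without untreated replicate 2. The differences of replicates 1 and 2 in the 2 groups had a correlation of -0.00089 across 14508 genes. The untreated difference was wide for scarce genes (log2 SD 3.15 at 3 to 10 CPM), which pulls a correlation toward 0, so it cannot decide whether libraries were paired. With the replicate number as a block 45 genes and 0 of the 9 passed. In that fit curcumol replicate 3 had no untreated partner and did not inform the fold changes. They were thus close to those without that library, for example 1.99 for Irgm2 and 0.29 for Igtp in both fits.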
